A study of Mus musculus with 18 samples.

Results

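Integrins are receptors of the cell surface, each made of an α and a β chain, that hold cells to the matrix outside and connect through talin and kindlin to the actin cytoskeleton inside. The pairing sets the ligand. β1 joins most α chains, α5β1 binds fibronectin, αv with β3 or β5 binds vitronectin and other proteins that carry the RGD motif, α3, α6 and α7 with β1 bind laminins, α11β1 binds collagen, and α4β1 binds fibronectin and VCAM1. In fibroblasts these receptors form the focal adhesions through which traction reaches the substrate, and in the experiments described here the substrate was coated with fibronectin.

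The 10 genes Itgb1, Itga5, Itgav, Itgb3, Itgb5, Itga4, Itga3, Itga6, Itga7 and Itga11 were taken by symbol from the 22019 genes of the normalized mRNA table, because they encode the chains of these receptors. All 10 symbols were found once each, and all 10 passed the filter on low values, as did 16021 genes in all. The rule that picks the genes uses their symbols and no measured value, but the members were chosen with earlier results of these data known.

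The cells were NIH 3T3 Tet-ON mouse fibroblasts, a long-established embryonic line, carried as stable transduced populations that express either SUN1L or KDEL. SUN1L is the lumenal domain of the nuclear envelope protein SUN1 and acts as a dominant negative on the LINC complex, which joins the cytoskeleton to the nucleus. KDEL is the control, a GFP held in the endoplasmic reticulum, and those cells had also been enriched by fluorescence sorting. Each construct was carried in a single population, so construct and population cannot be told apart. Every group received doxycycline at 1 μg/ml for 48 hr. KDEL and SUN1L cells were each grown on polyacrylamide gels of 1 kPa ("soft") and 308 kPa ("stiff"), and KDEL cells on 308 kPa also received the inhibitor Y27 or blebbistatin, an inhibitor of myosin II. Y27 was given at 25 μM and blebbistatin at 10 μM, each for 48 hr. Each of the 6 groups held 3 libraries, 18 in all. The study's methods call the libraries of a condition biological replicates. The labels do not say whether they came from separate cultures, and p-values measure only the spread between these libraries.

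The files held no read counts. The total normalized signal was 29583296 to 34880352 per library, and the smallest steps in the values put the depth at an estimated 12720000 to 19520000 read pairs. Sun1, the gene whose domain the construct carries, was at 38452 to 82617 in the 6 SUN1L libraries and at 2785 to 3799 in the other 12, which follows the labels. Of 10 fibroblast markers, Col1a1, Col1a2 and Vim were abundant in every library. Lum, at 1 to 5.44, and Fap, at 1 to 2.49, were at or near the table's lowest value of 1. Of 7 leukocyte markers, Ptprc was at 1 to 11.7, while Cd68 was at 58.7 to 304 and Itgb2 at 21.0 to 356. Of 7 epithelial markers, Krt18 was at 1 in every library and Epcam at 1 to 2.49, while the cadherin Cdh1 was at 88.0 to 311 and Itgb4 at 133 to 889.

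3 things about the libraries touch the results. Libraries 3 (SUN1L on 1 kPa), 7 (SUN1L on 308 kPa) and 8 (KDEL on 308 kPa) stood apart, with 11 markers of dividing cells at a mean log2 signal of 8.68 to 9.34 against 11.58 to 12.42 in the other 15 libraries. Library 34 carries both inhibitors in its labels, blebbistatin in the characteristics and Y27 in the source name, and both fields name its control as an empty vector where those of the other control libraries name GFP-KDEL. It was placed with blebbistatin, and whether its cells carried the same control construct is not settled. Each group has 1 library numbered 3 to 12, another numbered 15 to 24 and a last numbered 27 to 36. These sets are called run 1, run 2 and run 3 here, although no label calls them batches. The main fits and the exact tests did not pair libraries by run, so their spread includes that between runs. Fits with a block on runs are given near the end.

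To set the scale of the family, signal was divided by the length of each gene's exons, since only levels per length can be compared between genes. Itgb1, the common β chain, had the highest level, with a median over 18 libraries of 8394 signal units per kb of exon (lowest 5185, highest 9621). Itga5, its fibronectin partner, followed at 1262 (533 to 1883) and Itgb5, the β chain of αvβ5, at 1103 (806 to 1599). Itga3 had a median of 739 per kb and Itgav of 673. Itga6 had 443 per kb and Itgb3 had 93.8. The last 3 members were low, with Itga7 at a median of 14.3 per kb, Itga11 at 0.997 and Itga4 at 0.228.

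Not every step of that order was firm. Itgb1 stood above Itga5 in 18 of 18 libraries, Itga6 above Itgb3 in 18, Itgb3 above Itga7 in 18 and Itga7 above Itga11 in 18. Itga5 exceeded Itgb5 in only 11 of 18 libraries and Itga3 exceeded Itgav in only 10, so these neighbours could not be ordered beyond their spread. Per kb, Itgb1 was 2.02 to 3.81 times the summed signal of the 7 α chains in every library, with a median of 2.70. Itgb5 was 3.37 to 45.1 times Itgb3, and the width of this range came mostly from Itgb3, which varied more between libraries.

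**Figure D1:**
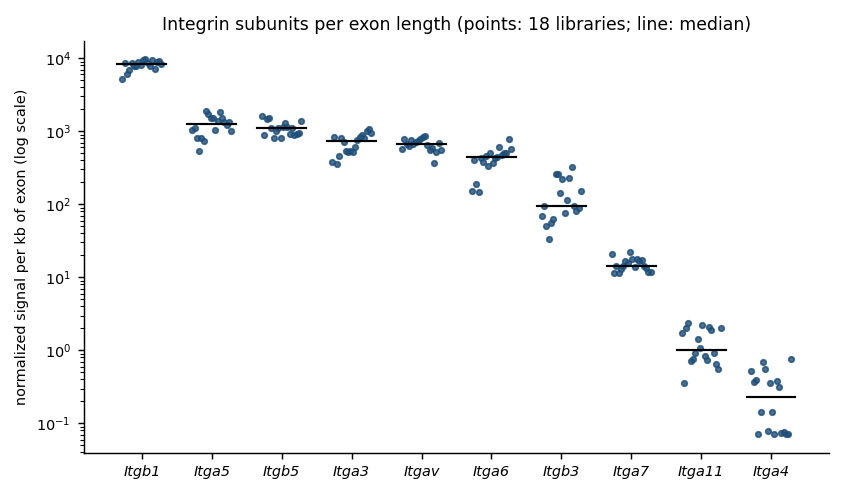
Normalized signal per kb of exon of the 10 integrin genes (log axis), each point 1 of the 18 libraries and each line the median of a gene. Itgb1 sits apart at the top at 5185 to 9621 per kb, 6 genes lie between the medians of 93.8 and 1262, and Itga11 and Itga4 lie around or under 1.

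The start regions of the 3 genes with the highest level per length are shown here because their windows adjoin a gene start and their contents can be set against all promoters. Each is the 250 bases before the start in RefSeq's mouse build GRCm38.p6, printed 5′ to 3′ on the gene's strand. Capitals mark matches on either strand to the letters searched, the GC box GGGCGG, the CCAAT box, the AP-1 site TGANTCA, the TEAD site CATTCC and the CHR element TTTGAA. In the deposited table, on GRCm38, Itgb1 spans chr8:128685654-128733200, Itga5 chr15:103344289-103366763, Itgb5 chr16:33829665-33949153, Itgb3 chr11:104608000-104670476 and Itga4 chr2:79255426-79333123. The window of Itgb1 is chr8:128685404-128685653 on the plus strand, that of Itga5 chr15:103366792-103367041 on the minus strand and that of Itgb5 chr16:33829415-33829664 on the plus strand.
Itgb1: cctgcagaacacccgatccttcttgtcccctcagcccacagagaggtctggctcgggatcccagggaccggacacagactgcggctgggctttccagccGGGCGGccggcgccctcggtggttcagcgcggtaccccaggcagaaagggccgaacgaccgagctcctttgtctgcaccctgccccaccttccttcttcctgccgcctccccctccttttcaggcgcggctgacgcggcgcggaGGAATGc
Itga5: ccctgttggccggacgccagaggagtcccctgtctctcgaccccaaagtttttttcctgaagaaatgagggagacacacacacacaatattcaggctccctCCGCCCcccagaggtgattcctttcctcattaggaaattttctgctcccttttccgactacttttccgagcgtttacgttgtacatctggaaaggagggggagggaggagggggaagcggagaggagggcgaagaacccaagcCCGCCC
Itgb5: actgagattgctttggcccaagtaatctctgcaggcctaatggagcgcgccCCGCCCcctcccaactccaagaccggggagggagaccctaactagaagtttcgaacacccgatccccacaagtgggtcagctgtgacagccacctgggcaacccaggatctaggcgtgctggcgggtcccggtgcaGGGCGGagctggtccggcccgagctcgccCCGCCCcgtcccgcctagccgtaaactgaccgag

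The Itgb1 window had a GC content of 68.0%, that of Itga5 55.6% and that of Itgb5 65.2%, against a median of 52.4% over 32851 promoters of the same length. The GC box occurred 1 time in Itgb1, 2 times in Itga5 and 3 times in Itgb5, and 32.7% of all promoters hold at least 1. A TEAD site lay on the reverse strand of Itgb1, 7 bases before the start, a motif that 12.6% of promoters hold. The CCAAT box (33.8% of promoters), the AP-1 site (6.75%) and the CHR element (16%) had no match in these 3 windows. Such matches are descriptions of letters and do not show that a factor binds.

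Across the whole design, none of the 10 members passed the test, which asked for a Benjamini-Hochberg adjusted p under 0.05 in limma and at least a 2-fold difference. With SUN1L on 1 kPa, 0 of 10 members were called and 0.0874% of the genes tested were. On 308 kPa, 0 of 10 members were called against 0.0624% of genes, and averaged over both rigidities 0 of 10 against 0.181%. For 308 kPa against 1 kPa the share of genes called was 0 in KDEL cells, 0 in SUN1L cells, 0 in their mean and 0 for the interaction, and 0 members were called in each. For Y27, for blebbistatin and between the inhibitors, 0 of 10 members and 0% of the 16021 genes were called. At an unadjusted p under 0.05, Itga4 alone of the members passed, with SUN1L on 1 kPa, in the SUN1L mean, with Y27, and between Y27 and blebbistatin. The matching shares over all genes were 4.54%, 6.8%, 6.05% and 2.83%. In the other 6 comparisons no member passed it, against 2.53% of genes for SUN1L on 308 kPa, 1.37% and 1.93% for rigidity in KDEL and SUN1L cells, 2.91% for its mean, 0.905% for the interaction and 4.21% for blebbistatin. A test that compares proportions of the signal added up over a group, and so leaves out the spread between libraries, called 1 member in 5 of its 7 comparisons and none in the other 2, with 1.4% to 4.31% of all genes called by it. At an adjusted p under 0.05 alone it passed 5 to 9 of the 10 members and 41.4% to 55.9% of all genes. The 95% intervals of the 8 members other than the barely detected Itga4 and Itga11 reached 0.46 to 1.65 log2 units either side of a difference between constructs on 1 rigidity or between rigidities in 1 construct, 0.33 to 1.17 for a mean over both and 0.35 to 1.48 for an inhibitor, so 2-fold differences of the more variable members were within the intervals.

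**Figure D2:**
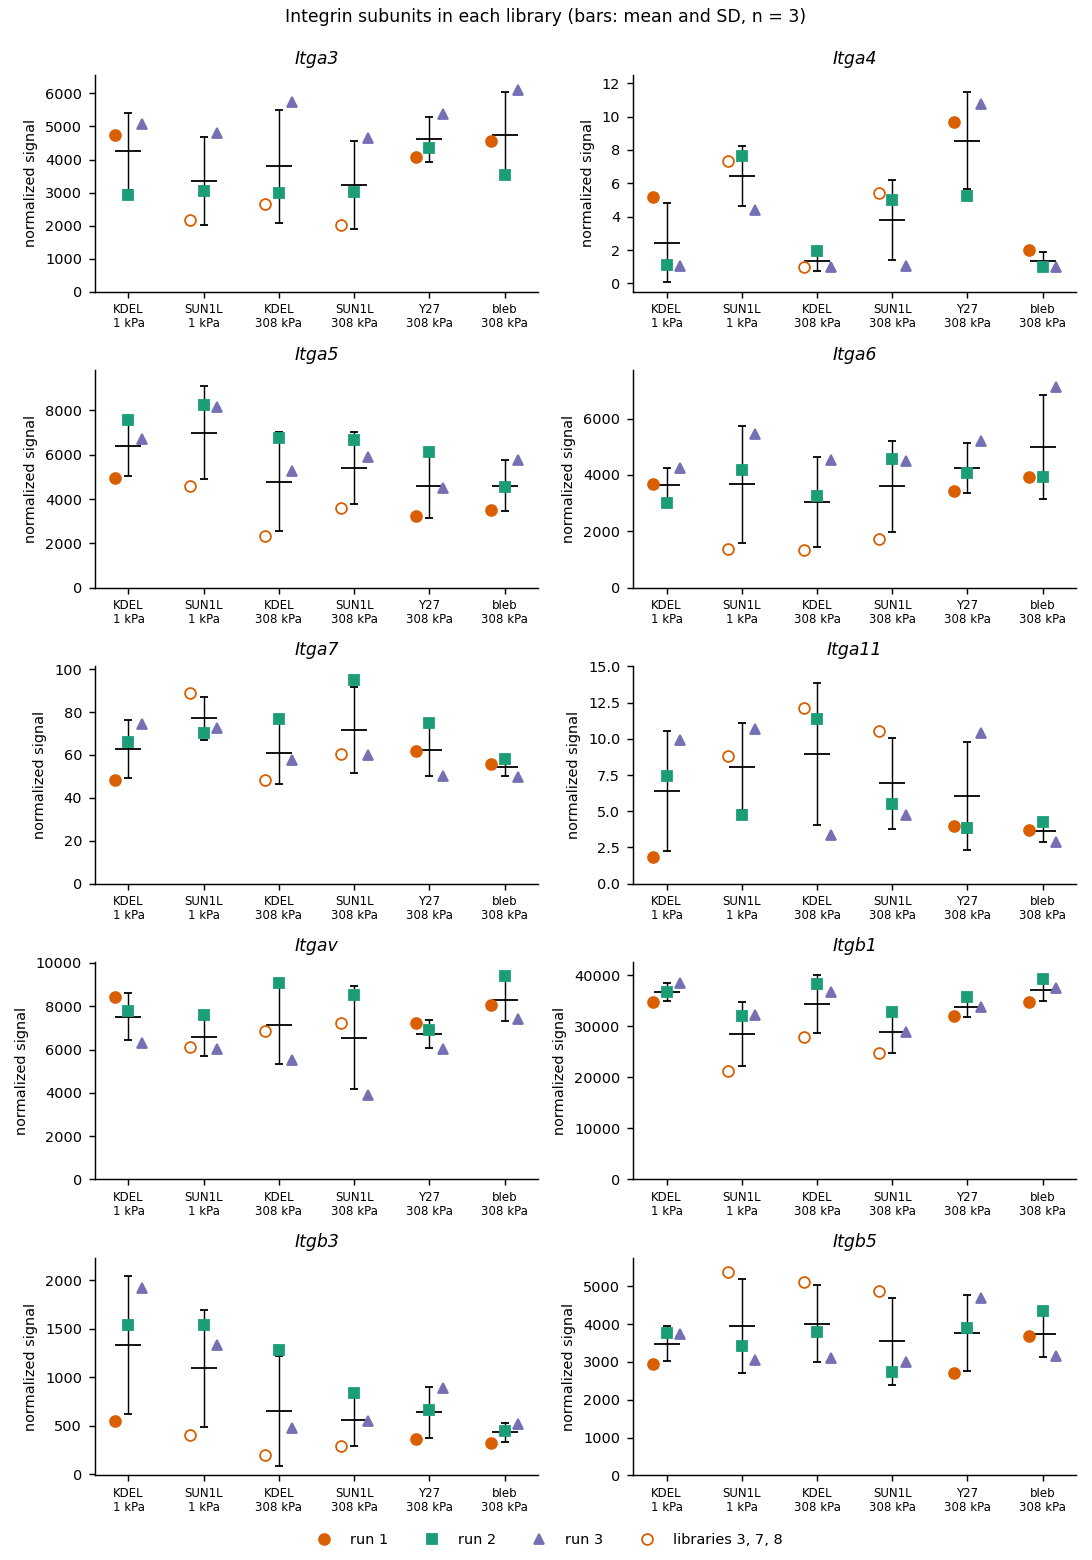
Normalized signal of each integrin gene in every library by group, with color and shape for the run of library numbers, open symbols for libraries 3, 7 and 8, and bars for the mean and SD of 3 libraries. The spread within a group is as wide as most steps between groups, and the open symbols sit lowest in Itga6 and Itga3 and highest in Itgb5.

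Itgb1, the β chain shared by most of these receptors, had lower mean signal with SUN1L on both gels, but the difference did not pass the test. On 1 kPa its signal was 34839, 36758 and 38392 in the KDEL libraries of runs 1, 2 and 3, and 21160, 31911 and 32107 in the SUN1L libraries. The SUN1L values all lay under the KDEL values, with library 3 far below the rest. The fitted log2 difference was −0.39 ± 0.21 (SE), adjusted p = 0.93 in limma, and 7.86% of all genes had SUN1L values wholly below KDEL values in this comparison. On 308 kPa KDEL cells gave 27912, 38346 and 36769 and SUN1L cells 24710, 32874 and 28953. These groups overlapped, because library 8 gave the 27912 of the KDEL group, and the log2 difference was −0.25 ± 0.21, adjusted p = 1, with −0.39 without library 8 and −0.14 without library 7.

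Averaged over both rigidities, the log2 difference of Itgb1 with SUN1L was −0.32 ± 0.15 (95% interval −0.65 to 0.01, limma adjusted p = 0.735). The exact two-sided permutation test over the 12 libraries gave p = 0.035, where 0.005 is the smallest p that its 400 arrangements allow and where the p is not adjusted for the 20 such tests computed. Set against the library of the same run and rigidity, Itgb1 was lower in the SUN1L library in 6 of 6 pairs, at 0.61 to 0.89 times the KDEL value, a pattern that 7.27% of all genes had. Without libraries 3, 7 and 8 the mean difference was −0.24, and on 1 kPa it was −0.20, a change of over 1.5 times that came from library 3. Between gels the means of Itgb1 differed by less than the larger of the 2 SDs, at 36663 ± 1778 and 34342 ± 5624 (SD, n = 3) in KDEL cells on 1 and 308 kPa and 28392 ± 6264 and 28846 ± 4083 in SUN1L cells. The means with Y27 (33761 ± 1865) and blebbistatin (37189 ± 2236) lay on either side of that of untreated KDEL cells on 308 kPa.

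Itga5, which pairs with β1 as the main fibronectin receptor of fibroblasts, was lower on the stiff gel in every run. In KDEL cells its signal was 4927, 7579 and 6710 on 1 kPa and 2333, 6740 and 5274 on 308 kPa, in the order of runs 1, 2 and 3. SUN1L cells gave 4590, 8244 and 8164 on 1 kPa and 3576, 6680 and 5901 on 308 kPa. The groups overlapped, since run 1 lay under the other runs in all 4 groups. Within a run the stiff library was lower in 6 of 6 pairs, at 0.47 to 0.89 times the soft value, and 4.08% of all genes were lower in 6 of 6.

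The fitted mean log2 difference of Itga5 for 308 kPa against 1 kPa was −0.45 ± 0.28 (95% interval −1.07 to 0.16, limma adjusted p = 1), and the exact permutation test gave p = 0.185. In KDEL cells alone it was −0.53 ± 0.40, with −0.08 without library 8 and −0.85 without library 20. The mean without libraries 3, 7 and 8 was −0.23. Library 8 and library 20 each moved the KDEL value by more than 1.5 times, in opposite directions. With Y27 Itga5 was at 3216, 6106 and 4481 and with blebbistatin at 3497, 4526 and 5776, values that fell inside the range of untreated KDEL cells on 308 kPa.

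Itgb3, the β chain that joins αv to bind vitronectin, had the largest fitted rigidity difference of the 8 well-detected members. KDEL cells gave 546, 1536 and 1923 on 1 kPa and 198, 1283 and 475 on 308 kPa. In SUN1L cells the signal was 411, 1535 and 1332 on 1 kPa and 297, 836 and 550 on 308 kPa. Here too the groups overlapped, because the soft libraries of run 1 were below the stiff libraries of run 2. The stiff library was lower in 6 of 6 same-run pairs, from 0.84 down to 0.25 times the soft value, a pattern that 4.08% of all genes had.

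For Itgb3 the mean log2 difference for 308 kPa against 1 kPa was −1.06 ± 0.53 (95% interval −2.22 to 0.11, limma adjusted p = 1), and the exact permutation test gave p = 0.095. In KDEL cells it was −1.25 ± 0.75 and in SUN1L cells −0.87 ± 0.75. Dropping library 3 put the SUN1L value at −1.47 and dropping library 7 at −0.48, while the KDEL value was −1.93 without library 20 and −0.59 without library 8. Without libraries 3, 7 and 8 together the mean and the SUN1L value were −0.83 and −1.07, and leaving out 1 library at a time put the mean between −1.40 (library 20) and −0.73 (library 8). Over the 6 groups Itgb3 varied within groups by 0.91 log2 units (SD), more than 97.8% of genes of like level, and by 0.47 within groups and runs. Y27-treated cells had 368, 665 and 893 and blebbistatin-treated cells 327, 450 and 519, all inside the 198 to 1283 of untreated cells.

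**Figure D3:**
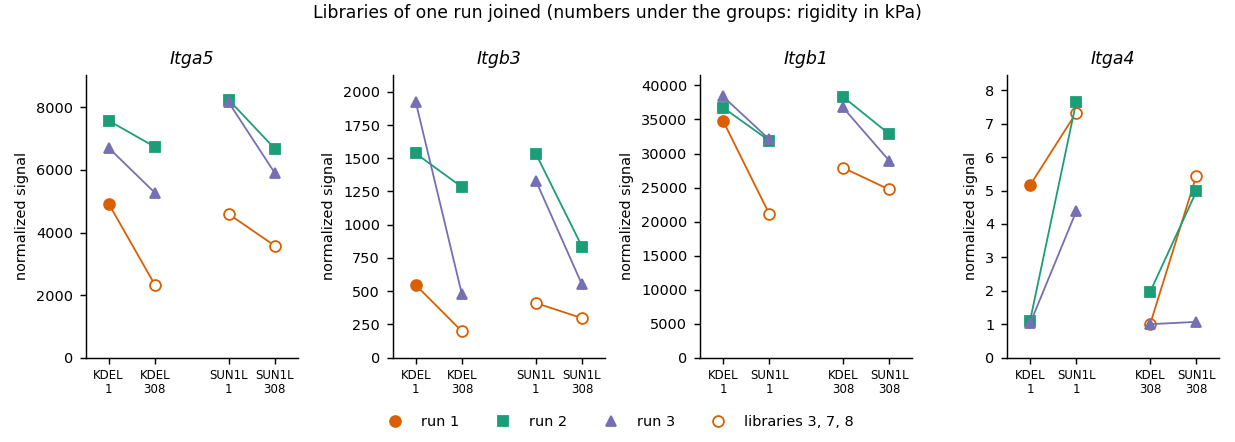
Normalized signal of Itga5, Itgb3, Itgb1 and Itga4, with lines that join libraries of the same run, from soft to stiff for the first 2 genes and from KDEL to SUN1L for the last 2. Every line slopes down for Itga5, Itgb3 and Itgb1 and up for Itga4, while the heights of the lines differ between runs and open symbols mark libraries 3, 7 and 8. The Itga4 line of run 3 on 308 kPa rises only from 1.00 to 1.07.

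Itgav, the α chain of the vitronectin receptors, varied little between the constructs or rigidities. Its group means were 7524 ± 1090 and 7154 ± 1808 (SD, n = 3) in KDEL cells on 1 and 308 kPa and 6579 ± 892 and 6541 ± 2386 in SUN1L cells. Between the inhibitors the values did not overlap, with 7240, 6883 and 6011 for Y27 and 8067, 9374 and 7428 for blebbistatin. The log2 difference of Y27 against blebbistatin was −0.30 ± 0.19 (95% interval −0.73 to 0.13, limma adjusted p = 1), and 4.24% of all genes lay wholly lower with Y27. Without library 34 it was −0.38. Untreated KDEL cells on 308 kPa, at 6856, 9093 and 5514, spanned most of both groups, and the log2 difference of blebbistatin against them was 0.24 ± 0.19 (limma adjusted p = 0.89), with 0.06 without library 32 and 0.42 without library 20.

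Itgb5, the other β chain that joins αv, was at 2953, 3760 and 3733 in KDEL cells on 1 kPa and at 5124, 3803 and 3106 on 308 kPa. SUN1L cells had 5377, 3420 and 3061 on 1 kPa and 4875, 2745 and 3010 on 308 kPa. The highest value in each of the last 3 groups was that of library 8, 3 or 7. The group means with Y27 (3769 ± 1000) and blebbistatin (3731 ± 590) lay between those of the groups without inhibitor.

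Itga4, whose product binds fibronectin and VCAM1 and is better known from leukocytes, was barely detected, but held the smallest unadjusted p of the members. In KDEL cells its signal was 5.16, 1.11 and 1.02 on 1 kPa and 1, 1.97 and 1 on 308 kPa. SUN1L cells had 7.33, 7.66 and 4.38 on 1 kPa and 5.44, 4.97 and 1.07 on 308 kPa. With Y27 it was at 9.68, 5.26 and 10.8, and with blebbistatin at 1.99, 1 and 1. The Y27 values lay above all values of untreated KDEL cells and of blebbistatin-treated cells on the stiff gel. KDEL and SUN1L values overlapped on both gels.

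These values stand for an estimated 13.0 read pairs in the 3 Y27 libraries together against 1.0 in untreated KDEL cells on 308 kPa and 1.0 with blebbistatin, and for 10.0 with SUN1L on 1 kPa against 3.8 with KDEL. On the scale of log2(signal + 1), which understates the change of low genes, Itga4 was higher by 2.02 ± 0.31 with Y27 (95% interval 1.31 to 2.73, limma adjusted p = 0.379; 1.92 without library 8), and 4.95% of all genes lay wholly higher with Y27. Against blebbistatin the difference was 2.01 (5.39% of genes wholly higher), and 1.92 without library 34. The SUN1L mean difference was 1.11 ± 0.37 (limma adjusted p = 0.58, exact permutation p = 0.04) and 0.87 without libraries 3, 7 and 8. The SUN1L library was higher in 6 of 6 pairs, as for 4.06% of all genes. In 1 of these pairs library 31 was at 1.07 and library 32 at 1.00, the lowest value, an estimated 0.5 against 0.0 read pairs. The fitted size depended on the constant added before the logarithm, since the Y27 difference was 0.82 with 8 and 2.61 with 0.1.

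Markers of other cell types were read beside Itga4 because it is not a typical fibroblast integrin. The 5 endothelial markers summed to 1069 to 3980 with Y27 and to 378 to 730 in untreated KDEL cells on 308 kPa. Among them Tek was at 3928, 2589 and 779 with Y27 against 682, 244 and 125, and the other 4 summed to 51.5, 155 and 290 against 47.3, 156 and 253. The Y27 group thus stood higher in Tek and not in the sum of the others. Over all 18 libraries Kdr was at 1 to 11.9, Pecam1 at 7.87 to 70.3 and Cdh5 at 7.00 to 234. The 7 leukocyte markers summed to 90.9 to 593 over the 18 libraries. With Y27 they summed to 235.5, 426.5 and 267.4, against 90.85, 526.3 and 369.6 in untreated KDEL cells on 308 kPa. For the 7 epithelial markers the sums were 600.8, 1104 and 1173 against 449.7, 580.5 and 338, without overlap. That list includes Itgb4, itself an integrin chain, at 301.1, 888.6 and 867 against 132.5, 426.6 and 233.9. Cdh1 was at 293.2, 206.3 and 290.4 against 311, 148.5 and 88.04. Each of these genes overlapped between the groups when taken alone. The sums of the 5 muscle markers were 5827, 10848 and 6146 against 4001, 12914 and 12644. Most of each was Tagln, at 5613, 10163 and 5534 against 3698, 12548 and 12105. The part of any of these markers in the Itga4 values was not tested.

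Itga3 and Itga6, whose products bind laminin with β1, were lowest in the libraries that stood apart. Itga6 was at 1386, 1723 and 1346 in libraries 3, 7 and 8 and at 3020 to 7121 in the other 15. Itga3 was at 2178, 2016 and 2641 against 2924 to 6108, and Itgb1 at 21160, 24710 and 27912 against 28953 to 39263. Itgb5 went the other way, at 5377, 4875 and 5124 against 2710 to 4697. Thus 3 members were wholly lower and 1 wholly higher in these 3 libraries, while 12.9% and 8.80% of all genes were.

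Over the 18 libraries the mean log2 signal of the 11 dividing-cell markers had a Pearson correlation of 0.91 with Itga6, 0.86 with Itgb1, 0.80 with Itga3 and −0.70 with Itgb5, against 0.02 with Itgav. Over the 15 libraries without 3, 7 and 8 they were 0.50, 0.32, 0.74 and 0.02, with −0.41 for Itgav, so only that of Itga3 stayed near its first value. These are descriptions over points that share runs and scaling, and the part of the low dividing markers in the integrin values was not tested. In a bulk library fewer cells in division and less of a transcript per cell cannot be told apart.

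**Figure D4:**
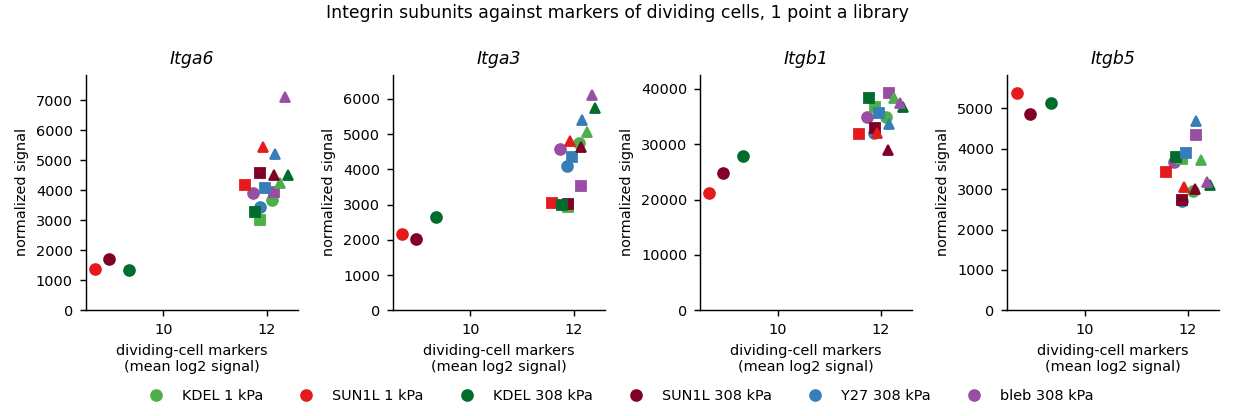
Normalized signal of Itga6, Itga3, Itgb1 and Itgb5 against the mean log2 signal of 11 markers of dividing cells, 1 point per library, colored by group, with circles for run 1, squares for run 2 and triangles for run 3. Libraries 3, 7 and 8 lie at 8.68 to 9.34 on the horizontal axis, low for the first 3 genes and high for Itgb5, and the other 15 lie at 11.58 to 12.42.

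Between groups, Itga6 was highest with blebbistatin, at 3913, 3938 and 7121, the last from library 34. Y27 gave 3445, 4063 and 5213, and untreated KDEL cells on 308 kPa gave 1346, 3269 and 4516. Within each run both treated libraries were above the untreated library, as 14% of genes were for Y27 and 14.5% for blebbistatin, but the groups overlapped. The log2 difference was 0.82 ± 0.45 with blebbistatin (95% interval −0.21 to 1.85, limma adjusted p = 0.89) and 0.62 ± 0.45 with Y27 (adjusted p = 0.85). Without library 34 the blebbistatin value was 0.54, and without library 8 it was 0.32, with 0.12 for Y27. Without library 32 both were larger, at 1.19 and 0.99.

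Itga3 gave 2641, 2984 and 5747 in untreated KDEL cells on 308 kPa, 4087, 4357 and 5391 with Y27 and 4570, 3523 and 6108 with blebbistatin. The groups overlapped, and the log2 differences of 0.36 ± 0.31 and 0.37 ± 0.31 (limma adjusted p = 0.85 and 0.89) became 0.15 and 0.16 without library 8 and 0.71 and 0.72 without library 32. In the design of construct and rigidity the Itga3 group means ran from 3227 ± 1326 to 4246 ± 1155, within an SD of each other, and those of Itga6 from 3044 ± 1597 to 3671 ± 2077.

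Itga7, the laminin receptor chain typical of muscle, stayed low, at 48.1 to 95 over the 18 libraries. With SUN1L it was at 88.8, 70.2 and 72.5 on 1 kPa and at 60.2, 95 and 60.0 on 308 kPa, against 48.1, 66.1 and 74.4 and 48.4, 76.6 and 57.6 with KDEL. The groups overlapped on both gels, and the mean log2 difference was 0.27 ± 0.21 (limma adjusted p = 0.894), with 0.16 without library 19. Blebbistatin gave the lowest mean, 54.5 ± 4.37, a little under the 60.9 ± 14.4 of untreated cells.

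Itga11, a collagen receptor chain of fibroblasts in tissue, was at 1.84 to 12.1 signal units, an estimated 1.0 to 5.8 read pairs per library. It was lowest with blebbistatin, at 3.72, 4.25 and 2.84, against 12.1, 11.4 and 3.34 in untreated KDEL cells on 308 kPa. The groups overlapped through library 32, the log2 difference was −0.96 ± 0.50 (limma adjusted p = 0.89), and it was −0.84 without library 34, −0.68 without library 8 and −1.48 without library 32. At this depth a small difference in Itga11 or Itga4 was not detectable.

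**Figure D5:**
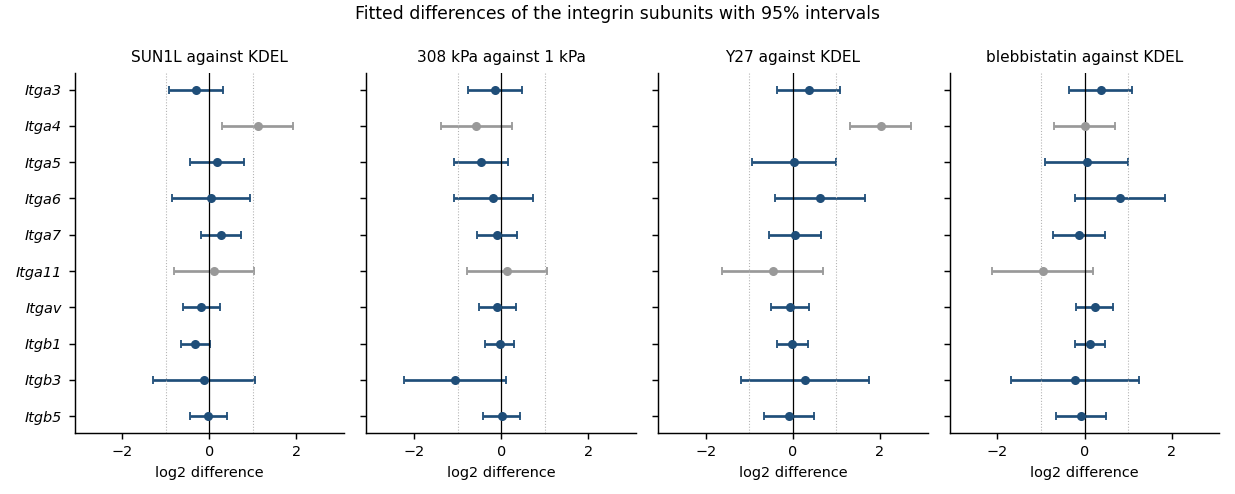
Fitted log2 differences of the 10 integrin genes with 95% intervals (zero at the solid line, 2-fold at the dotted lines) for SUN1L against KDEL and 308 against 1 kPa, each averaged over the other factor, and for Y27 and blebbistatin against KDEL on 308 kPa, with grey for the barely detected Itga4 and Itga11. The interval of Itgb1 with SUN1L ends at 0.01, that of Itgb3 with rigidity at 0.11, and no difference shown has an adjusted p under 0.05.

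Taking the 8 well-detected members as a set, the log2 differences with SUN1L ran from −0.39 to 0.31 on 1 kPa and from −0.25 to 0.28 on 308 kPa. For 308 against 1 kPa, 7 of 8 were lower in the mean of both constructs, from −1.06 to 0.01 with a median of −0.11, beside 54.2% of all genes that were lower. Without libraries 3, 7 and 8, 6 of 8 were lower, from −0.83 to 0.09 with a median of −0.05. The interaction asks whether the rigidity difference is the same in the SUN1L and the KDEL population. It was between −0.34 and 0.47 for the 8 members, with intervals of 0.65 to 2.33 either side, and its smallest unadjusted limma p was 0.396. It was above 0 for 6 of the 8, beside 49.3% of all genes. Without libraries 3, 7 and 8 it was below 0 for all 8, from −0.49 to −0.02. The median in that fit was −0.16, beside −0.02 for all genes. The 8 values rest on the same libraries and are not separate observations. Against KDEL on 308 kPa, the differences lay between −0.10 and 0.62 with Y27 and between −0.22 and 0.82 with blebbistatin, a pair of comparisons that share their control libraries. Without library 8 the ranges were −0.42 to 0.14 and −0.88 to 0.32.

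The members with the most alike profiles over the 18 libraries were Itga5 with Itgb3 (Pearson r = 0.88, Spearman rho = 0.88) and Itga3 with Itga6 (0.82 and 0.81). Itga6 and Itgb1 had r = 0.71 and rho = 0.32, a gap between the measures that the other pairs named did not show. Among genes of at least median level, the profiles most like Itga5 were those of Frmd4a (r = 0.97), Angptl2 (0.95) and Abtb2 (0.95). Itgb3 was most like Angptl2 (0.94), Ank (0.94) and Frmd4a (0.93), sharing 2 of the 3 with Itga5. The nearest profiles to Itga6 were Cdc25b (0.96), a phosphatase that starts mitosis, Gcat (0.95) and Racgap1 (0.95), which acts in cytokinesis. Itgb1 was most like Mfsd6 (0.96), Ogdh (0.95) and Fut8 (0.94), Itga3 like Uchl3, Bckdk and Eno1 (0.96 each), and Itgav like Tmtc3 (0.97), RP24-426M1.3 (0.96) and Ids (0.95). For Itgb5 the highest was Cept1 at 0.79, for Itga7 Ypel5 at 0.73, for Itga4 Cnnm3 at 0.78 and for Itga11 Rbm4b at 0.73. All of these are correlations over the same 18 libraries, which share runs, groups and scaling.

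The share of variance between runs differed among the members. It was 61.4% for Itga5, 54.2% for Itga6, 51.6% for Itgb3, 51.3% for Itga3 and 50.8% for Itgav, against 29.0% for the median gene. Itgb1 had 35.2% between runs and 49.0% between groups, while 4 members lay under the median gene, with Itga7 at 22.7%, Itga4 at 9.95%, Itgb5 at 8.99% and Itga11 at 0.338%. Within groups the SD of Itgb1 was 0.20 log2 units, larger than that of only 19.8% of genes of like level, while Itga6 at 0.70 and Itga5 at 0.51 exceeded 96.8% and 93.8%. Libraries 3, 7 and 8 all belong to run 1, so these shares and SDs include how far they stood apart. Itga6 was at 1386, 1723 and 1346 in them, against 3661, 3913 and 3445 in libraries 4, 10 and 12 of the same run.

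The ligands these receptors bind were low with SUN1L more often than high, though none of the 26 tested passed the test. On 1 kPa 23 of 26 were lower, with a median log2 difference of −0.37 beside −0.01 for all genes, and 51.7% of all genes were lower. Without libraries 3, 7 and 8 it was 21 of 26 and −0.20. The elastic fiber protein Fbln5 was at −0.82 in the SUN1L mean (limma adjusted p = 0.605) and the laminin chain Lama5 at 0.50. On the stiff gel the ligand median was −0.33 in KDEL cells, and −0.08 without libraries 3, 7 and 8. With Y27 Lama5 had a log2 difference of −0.83 (adjusted p = 0.707), and Lamc1, the common laminin γ chain, had 0.42 with both Y27 and blebbistatin.

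Inside the cell, the 23 tested activators and links to actin were higher with blebbistatin in 23 of 23, with a median of 0.20 beside 0.00 for all genes, of which 49.8% were higher, and no call among them. The count was 23 of 23 without library 34 and 20 of 23, with a median of 0.07, without libraries 3, 7 and 8. Tln1, the talin that binds β tails, was at 0.44 (limma adjusted p = 0.89). On the stiff gel the adaptors Bcar1 and Pxn had mean differences of −0.27 and −0.26 (adjusted p = 1 for both), and with SUN1L the kindlin Fermt2 was at −0.22 and the small GTPase Rap1b at −0.19. The 8 genes listed here as integrin inhibitors were higher with Y27 in 8 of 8 (50.9% of all genes), with a median of 0.24. Without libraries 3, 7 and 8 it was 5 of 8 with 0.07. With all libraries Kank2, a gene of this list, was at 0.40 (limma adjusted p = 0.707). Of the partners in the membrane, the tetraspanin Cd81 was at 0.41 and the syndecan Sdc1 at 0.35 with Y27. Among genes of integrin traffic and processing, Furin, a protease that cleaves several α chains, was at −0.34 on the stiff gel (adjusted p = 1), Rab11fip3 at 0.24 with SUN1L and Arf6 at 0.37 with Y27. No gene of any of these lists was called in any of the 10 comparisons.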

How the data were processed

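The deposited table holds 1 signal value per gene and library. Per the study's methods the authors aligned paired 50-base reads with TopHat2 2.0 to mm9, filtered them in AvadisNGS and normalized by the trimmed mean of M-values. The signal is linear, has a lowest value of 1, is not a count and keeps no depth. Gene starts lay within 1000 bases of RefSeq's GRCm38 for 87.2% of 20116 genes compared by symbol, so GRCm38 positions are given. Exon lengths came from an mm9 annotation, matched by gene ID for all 10 members. The column numbered 35 was read as library 34.

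Genes above 1 in at least 3 of 18 libraries were tested as log2(signal + 1) with limma 3.58.1 (R 4.3.3, variance trend), Benjamini-Hochberg adjusted over 16021 genes. The 12 libraries of construct and rigidity were fitted together, and the 9 on 308 kPa in KDEL cells, with and without inhibitors, were fitted together. A call needed an adjusted p under 0.05 and 2-fold. Exact two-sided permutation tests moved construct labels within a rigidity and rigidity labels within a construct. 3 libraries against 3 alone cannot give an exact p under 0.1. Read pairs of low members were estimated from the smallest steps in the values. Only about 50% of low values were whole at these steps (tolerance 0.1), so whole reads were not recovered. The fits were tested on simulated data.

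The members and the gene lists were chosen with earlier results of these data known. The genes named beside the members are the 2 with the smallest unadjusted p of a list in a comparison and the 3 with the profile most like a member, and not all of them are printed. The alternatives were other filters, added constants, scalings, variance models and samples, a block on runs and a z-test of proportions on summed signal, in a form chosen here because the methods name z-scores without giving theirs.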

Additional observations from a re-analysis of the deposited data

How the results depend on the processing

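No member was called in any of the 10 comparisons by limma under any alternative: no filter, a mean of at least 10, constants of 8 and 0.1, quantile normalization, no variance trend, no fold limit, all 18 libraries fitted together, a replicate block on runs, each library left out in turn, no run 1, library 34 left out or counted as Y27, and libraries 3, 7 and 8 left out. The last, and the counts over same-run pairs, were chosen after seeing the data. The lowest adjusted p of a member in any of these was 0.15, for Itga4 with SUN1L under the block. The z-test of proportions called 1 member with SUN1L on 1 kPa (Itga4), 1 on the stiff gel in KDEL cells (Itgb3), 1 with Y27 (Itga4), 1 with blebbistatin (Itga11) and 1 between the inhibitors (Itga4). It takes the summed signal as counts and leaves out the spread between libraries. Of 23 log2 differences followed closely, which include those printed for single members in single comparisons, none changed sign under any alternative. Over all 10 members and 10 comparisons, 31 of 100 differences changed sign without libraries 3, 7 and 8, 36 of 100 without run 1, and none under the block, the filters or the constants. Leaving out 1 library changed the sign in 133 of 780 cases.

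Deviations from the group means had a median correlation of 0.29 between libraries of the same run (0.07 to 0.67 over 45 pairs) and of −0.11 between runs. Over 0.1 were 41 of the 45 same-run pairs and 2 of the 90 pairs from different runs, so libraries of a run were alike. No label names the runs, and the block was kept as an alternative. The SEs, intervals and p-values of the main fits therefore count the spread between runs as noise. The labels number no replicates. With this replicate block, limma's adjusted p was 0.161 for Itgb1 with SUN1L, 0.286 for Itgb3 and 0.406 for Itga5 with rigidity. Without a read count per gene, the counting error of single values is unknown.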

Other observations

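Of the other 17 integrin genes in the table, 16 passed the filter on low values and none was called by limma in any of the 10 comparisons. Their levels are given as signal, without division by length, and are not ranked. Among them were Itgb8, which joins αv, at 265 to 1360 over the 18 libraries, Itga8, an RGD-binding partner of β1, at 261 to 905, Itgb7 at 307 to 1093, Itga2b, the platelet chain that joins β3, at 325 to 820, and Itgb4, the hemidesmosome chain that joins α6, at 133 to 889. Itgb4 was at 301, 889 and 867 with Y27 in runs 1, 2 and 3, a log2 difference of 1.37 against untreated KDEL cells on 308 kPa (limma adjusted p = 0.789). Itgb2, the common β chain of leukocyte integrins, was at 21.0 to 356, and Itga1, a collagen receptor chain, at 46.2 to 144. Itgb2l was listed at 1 in all 18 libraries.

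Library 34, whose labels name both inhibitors, was listed at 1 for Itga4, where the other blebbistatin libraries had 1.99 and 1 and the Y27 libraries 5.26 to 10.8. Its Tek signal was 157, against 1489 and 551 in the other blebbistatin libraries and 779 to 3928 in the Y27 libraries. It had the highest Itga3 and Itga6 signal of all 18 libraries. These values do not settle its label.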
